A study of Homo sapiens with 6 samples.

Results

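MYC and 9 other genes of the MAX network were followed across the 6 RNA-seq libraries of the series: MYC, MAX, MXD1, MXD3, MXD4, MXI1, MNT, MGA, MLX and MLXIP. They were taken by exact symbol from the 25365 rows of the deposited expression table, in which all 10 were found, and all 10 passed the filter on low values. The cells were MDA-MB-231, an established triple-negative breast cancer line, transfected with siRNA at 20 nM and collected after 48 h. In 3 libraries the cells had received a negative control siRNA (si-Control, Ambion AM4611) and in the other 3 a single siRNA against NRDE2 (si-NRDE2-2, Ambion s30064). NRDE2 is found in the nucleus, where it associates with MTREX, an RNA helicase, and the question was what its depletion does to the mRNA of these cells. Only 1 NRDE2 siRNA was sequenced, so effects of NRDE2 loss and of that siRNA on other transcripts cannot be told apart. The labels do not tell whether replicates came from separate cultures. The p-values therefore cover the spread between these libraries alone, and that spread may be technical.

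The proteins of this network are basic helix-loop-helix leucine zipper factors that bind E-box DNA, CACGTG in its best-known form, as heterodimers. MAX is the shared partner: MYC:MAX dimers activate transcription, whereas dimers of MAX with the MXD proteins, MXI1 or MNT recruit SIN3 and histone deacetylases and repress it. MGA brings MAX into a Polycomb complex, PRC1.6. MLX is another shared partner, which pairs with MLXIP (MondoA) and MLXIPL (ChREBP) to regulate genes by glucose supply, and also with MNT and some MXD proteins. MYC is often raised in triple-negative breast cancer, and its mRNA and protein are both short-lived.

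Because these dimers share the E-box, the promoters of the members themselves were searched for it, and the stretches that hold it are shown here. RefSeq promoter windows (250 bases before to 50 after an annotated start, GRCh38.p14) were found for 9 of the 10 members, in 14 windows, with several for MAX, MXI1 and MGA. MYC was not matched. CACGTG, which reads the same on both strands, lay in the windows of 3 members, MXD4, MNT and MLX, and in those of 12.7% of the 8811 tested genes with a window. The sequences run 5′ to 3′ on the gene's strand, with CACGTG in capitals.

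MXD4, chr4:2262300-2262359, minus strand, motif beginning 238 bases before the start: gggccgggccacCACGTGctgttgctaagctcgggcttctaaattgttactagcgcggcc

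MNT, chr17:2401221-2401280, minus strand, motif beginning 193 bases before the start: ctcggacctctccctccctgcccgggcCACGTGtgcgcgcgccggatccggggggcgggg

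MLX, chr17:42567023-42567082, plus strand, motif beginning 50 bases before the start: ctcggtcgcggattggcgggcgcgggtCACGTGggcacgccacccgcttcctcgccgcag

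The variant E-box CACGCG, or CGCGTG on the other strand, was found in the windows of MXD3, MXI1 and MGA and in those of 22.7% of tested genes with a window. For MXI1 and for MGA it lay in a single window of several. A gene counts in these shares if any of its windows holds the sequence. With si-NRDE2-2, the members that hold CACGTG did not move alike: MXD4 rose, MNT fell and MLX did not pass the test, as given below. A match is a string of letters and was not tested as a bound site.

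Values were read as FPKM (fragment numbers divided by transcript length and by library size). The authors named their deposited table as counts, but it holds decimals whose smallest steps differ between genes, and setting levels of different genes side by side rests on that reading. Depth was estimated at 43600000 to 60200000 fragments per library, with low values of long single-transcript genes each read as a single fragment. NRDE2 mRNA was 3.80 to 4.45 FPKM in the si-Control libraries and 0.229 to 0.234 FPKM in the si-NRDE2-2 libraries, in accord with every label. As markers of this line, VIM (at least 1110 FPKM) and CD44 (at least 149 FPKM) were high in every library, and the hormone receptor genes ESR1 and PGR did not exceed 0.00356 and 0.00441 FPKM. ERBB2, not amplified in a line of this type, was 10.3 to 12.9 FPKM, and the epithelial genes EPCAM and KRT18 were 7.43 to 8.45 and 261 to 320 FPKM. ERBB2, EPCAM and KRT18 had all been listed among markers low or absent in this line. The level of KRT18 goes against that, and ERBB2 and EPCAM, above 1 FPKM in every library, were not absent. CDH1, listed with them, was 0.326 to 0.445 FPKM. The leukocyte marker PTPRC did not exceed 0.0618 FPKM, and the endothelial marker PECAM1 was 0.525 to 1.18 FPKM. Changes were tested with limma on log2(FPKM + 0.1) over 11790 genes, log2 fold changes are si-NRDE2-2 over si-Control ± SE on that scale, and an adjusted p (Benjamini-Hochberg over all genes tested) under 0.05 was called.

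Of the 10 members 1 rose, MXD4, and 4 fell, MYC, MLXIP, MXI1 and MNT. The MAX partners thus moved in both directions, and neither shared partner, MAX or MLX, passed the test. Calls were common in this comparison: 44.0% of tested genes were called, 20.9% higher and 23.0% lower, so 5 called members of 10 lie near the background. For 7 of the 10 members the si-Control and si-NRDE2-2 ranges were apart, against 53.5% of tested genes. The median log2 fold change over the members was -0.13, and that over all tested genes was -0.016.

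**Figure D1:**
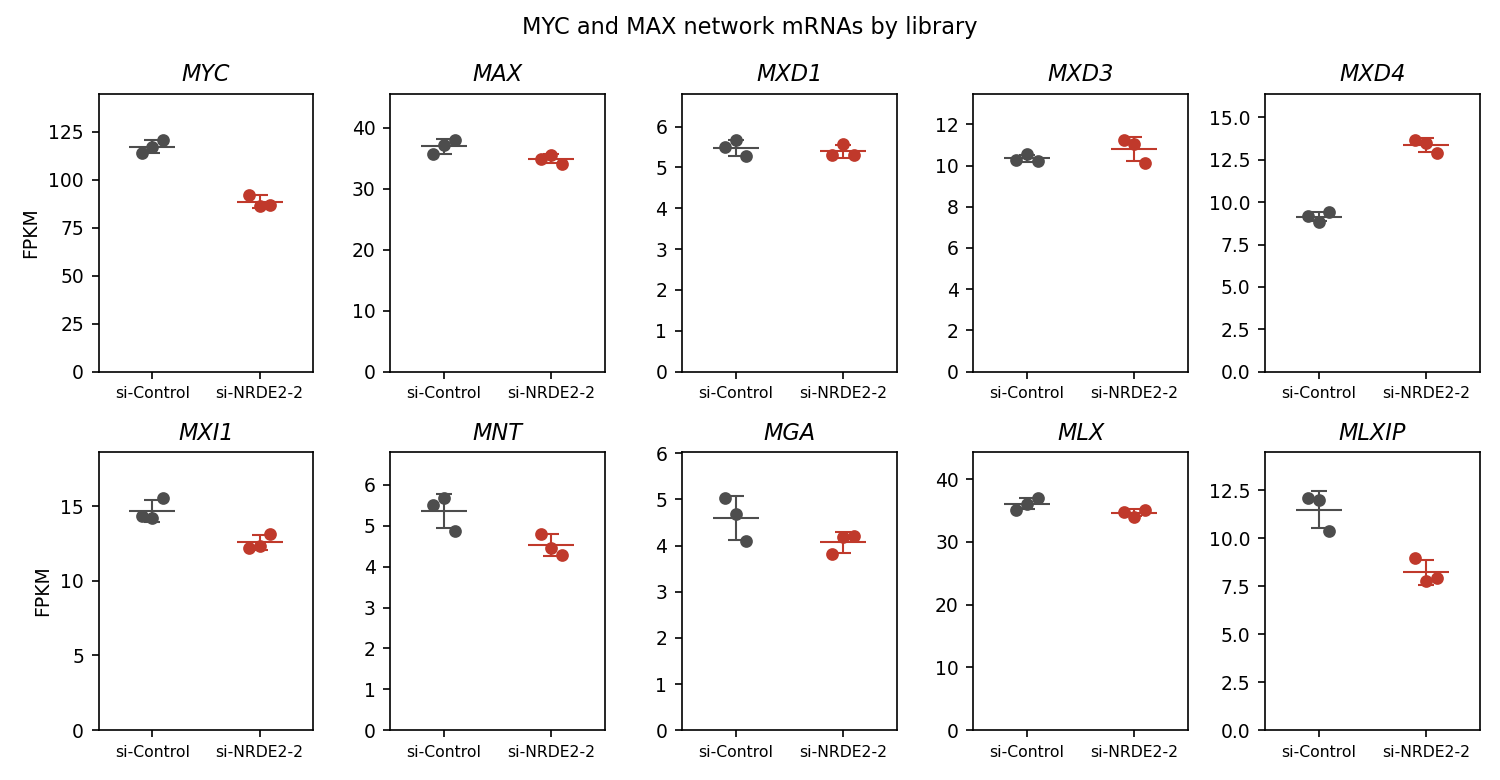
FPKM of the 10 members in each library (points, left to right replicates 1, 2 and 3), with the mean and SD of each group (n = 3); each axis starts at 0 and has its own range. MXD4 lies higher and MYC, MLXIP, MXI1 and MNT lie lower in the 3 si-NRDE2-2 libraries, without overlap. MAX and MLX, which were not called, also lie lower without overlap, by narrow gaps.

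MYC, the transcriptional activator of the network, was its most abundant mRNA and fell with si-NRDE2-2. Replicates 1, 2 and 3 had 114, 117 and 121 FPKM with si-Control and 92.3, 86.5 and 86.9 FPKM with si-NRDE2-2. The lowest control library was above the highest si-NRDE2-2 library. The mean of 117 ± 3.40 FPKM fell to 88.6 ± 3.25 FPKM (SD, n = 3), that is to 0.755 times the control (log2 fold change -0.41 ± 0.05, 95% interval -0.51 to -0.30, limma adjusted p = 4.6e-05). This change was larger in size than that of 88.1% of tested genes.

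MAX, the obligate partner of MYC and of the MXD proteins, was 35.6, 37.2 and 38.0 FPKM in the si-Control libraries and 34.9, 35.6 and 34.1 FPKM in the si-NRDE2-2 libraries. The groups did not overlap, but the gap between the lowest control and the highest si-NRDE2-2 library was small beside the spread within each group. The log2 fold change was -0.08 ± 0.04, with a 95% interval of -0.18 to 0.01 and an adjusted p of 0.144 (limma).

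The MXD group, the repressive partners of MAX, did not move together. For MXD4, replicates 1, 2 and 3 gave 9.17, 8.85 and 9.39 FPKM with si-Control and 13.7, 13.5 and 12.9 FPKM with si-NRDE2-2. All 3 si-NRDE2-2 libraries were above all controls, by far more than the libraries of either group differed among themselves. Its mean rose from 9.14 ± 0.274 to 13.4 ± 0.404 FPKM, 1.46-fold (log2 fold change 0.54 ± 0.05, 95% interval 0.44 to 0.65, limma adjusted p = 9.2e-06), larger in size than that of 93.9% of tested genes.

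MXI1, a close relative of MXD4, went the other way. It was 14.4, 14.2 and 15.5 FPKM with si-Control and 12.2, 12.4 and 13.1 FPKM with si-NRDE2-2, again without overlap. Its log2 fold change was -0.22 ± 0.05 (ratio 0.856, limma adjusted p = 0.0057). In the control cells MXI1 exceeded MXD4 in every library, with an MXD4 to MXI1 ratio of 0.605 to 0.638, and with si-NRDE2-2 that ratio was 0.983 to 1.12.

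The other members of the MXD group gave no call. MXD1 was 5.28 to 5.67 FPKM in the controls and 5.30 to 5.57 FPKM with si-NRDE2-2, so the ranges lay within each other. Its log2 fold change was -0.02 (95% interval -0.15 to 0.10, limma adjusted p = 0.780) and was 0.0028 without si-Control replicate 2. MXD3 was 10.2 to 10.6 FPKM in the controls and 10.1 to 11.2 FPKM with si-NRDE2-2, with si-NRDE2-2 replicate 3 below every control and the other two above. Its log2 fold change was 0.06 (95% interval -0.06 to 0.18, limma adjusted p = 0.374).

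MNT, a more broadly expressed repressive partner of MAX and MLX, was 5.52, 5.67 and 4.88 FPKM in the si-Control libraries and 4.81, 4.47 and 4.29 FPKM in the si-NRDE2-2 libraries. The groups were separated by a narrow gap, between si-Control replicate 3 and si-NRDE2-2 replicate 1. The log2 fold change was -0.24 ± 0.07 (ratio 0.844, limma adjusted p = 0.0210). MNT was no longer called when the first or the second si-Control library was left out (adjusted p of 0.0672 and 0.0979), nor when replicate 2 or 3 of si-NRDE2-2 was (0.0649 and 0.0738). The same held with no filter on low values (0.0511) and with libraries scaled to the same FPKM total (0.0536).

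MGA, the largest protein of the network and its link to Polycomb repression, had the lowest level, 5.02, 4.68 and 4.09 FPKM with si-Control and 3.81, 4.18 and 4.21 FPKM with si-NRDE2-2. The groups overlapped through si-Control replicate 3. The log2 fold change was -0.17 ± 0.08 (95% interval -0.35 to 0.01, limma adjusted p = 0.111). Without si-Control replicate 3 it was -0.25 with an adjusted p of 0.0179. With each library freed of GC and length trends, an alternative chosen after seeing the data, the adjusted p was 0.0155.

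**Figure D2:**
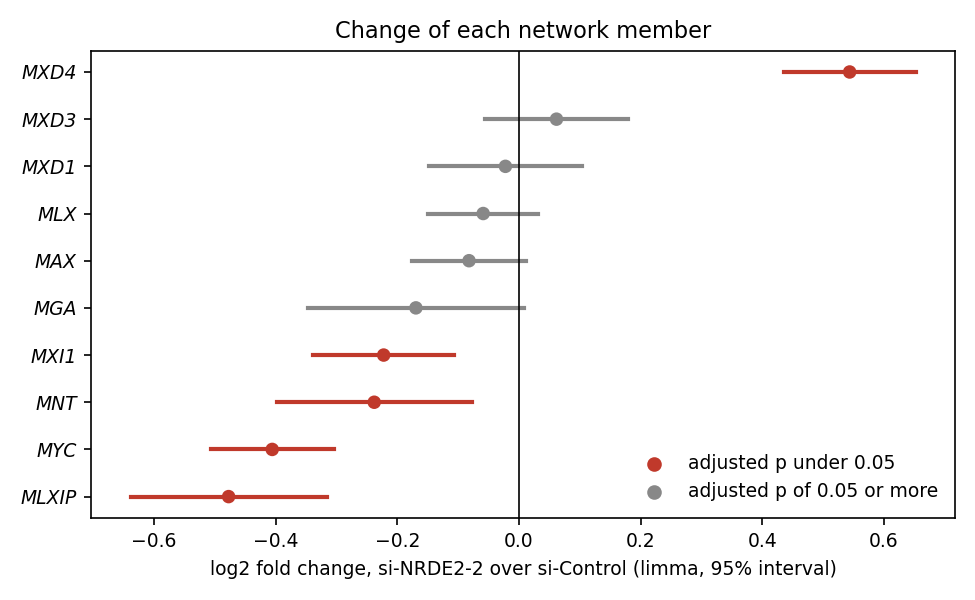
Log2 fold change of each member, si-NRDE2-2 over si-Control, with its 95% interval from limma (3 libraries per group); red marks an adjusted p under 0.05. MXD4 is the called member to the right of 0, at 0.54, and MLXIP and MYC lie farthest left at -0.48 and -0.41.

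On the MLX side, the glucose-sensing partner MLXIP fell while MLX gave no call. MLXIP stood at 12.1, 12.0 and 10.4 FPKM with si-Control (replicates 1, 2 and 3) and at 8.98, 7.79 and 7.91 FPKM with si-NRDE2-2. The groups did not overlap, although si-Control replicate 3 stood below the other controls. The mean of 11.5 ± 0.950 FPKM fell to 8.23 ± 0.654 FPKM, that is to 0.716 times the control (log2 fold change -0.48 ± 0.07, 95% interval -0.64 to -0.32, limma adjusted p = 3.9e-04). MLX was 35.1, 36.1 and 36.9 FPKM with si-Control and 34.7, 34.0 and 35.1 FPKM with si-NRDE2-2, a log2 fold change of -0.06 (95% interval -0.15 to 0.03, limma adjusted p = 0.269). The MLX groups were apart by a narrow gap, between 35.14 FPKM in si-Control replicate 1 and 35.09 FPKM in si-NRDE2-2 replicate 3. The MLX to MLXIP ratio was 2.91 to 3.55 in the controls and 3.86 to 4.44 with si-NRDE2-2.

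Set in order of level, the control cells ran MYC, MAX, MLX, MXI1, MLXIP, MXD3, MXD4, MXD1, MNT and MGA. Neighbours whose control ranges overlapped were MAX and MLX, MLXIP and MXD3, MXD1 and MNT, and MNT and MGA. With si-NRDE2-2 MXD4 stood at rank 4, with 13.4 FPKM beside 12.6 FPKM for MXI1, with overlapping ranges, and MLXIP stood at rank 7. Ranks 1 to 3 and 8 to 10 were held by the same genes in both groups.

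These changes altered the make-up of the network mRNA. Summed over the 10 members, the level was 251 ± 4.43 FPKM in the controls and 217 ± 4.34 FPKM with si-NRDE2-2 (SD, n = 3). MYC made up 46.2% to 47.3% of that sum in the controls and 40.2% to 41.6% with si-NRDE2-2, and MXD4 3.51% to 3.72% and 6.03% to 6.28%. MYC per MAX went from 3.17 ± 0.0235 to 2.54 ± 0.107. The summed level of MXD1, MXD3, MXD4, MXI1 and MNT was 45.0 ± 0.261 FPKM in the controls and 46.7 ± 0.777 FPKM with si-NRDE2-2, so that MYC per unit of these 5 mRNAs went from 2.61 ± 0.0610 to 1.90 ± 0.0555. No test is given for these sums and ratios, whose parts were tested gene by gene. They are of mRNA, and protein levels were not measured.

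**Figure D3:**
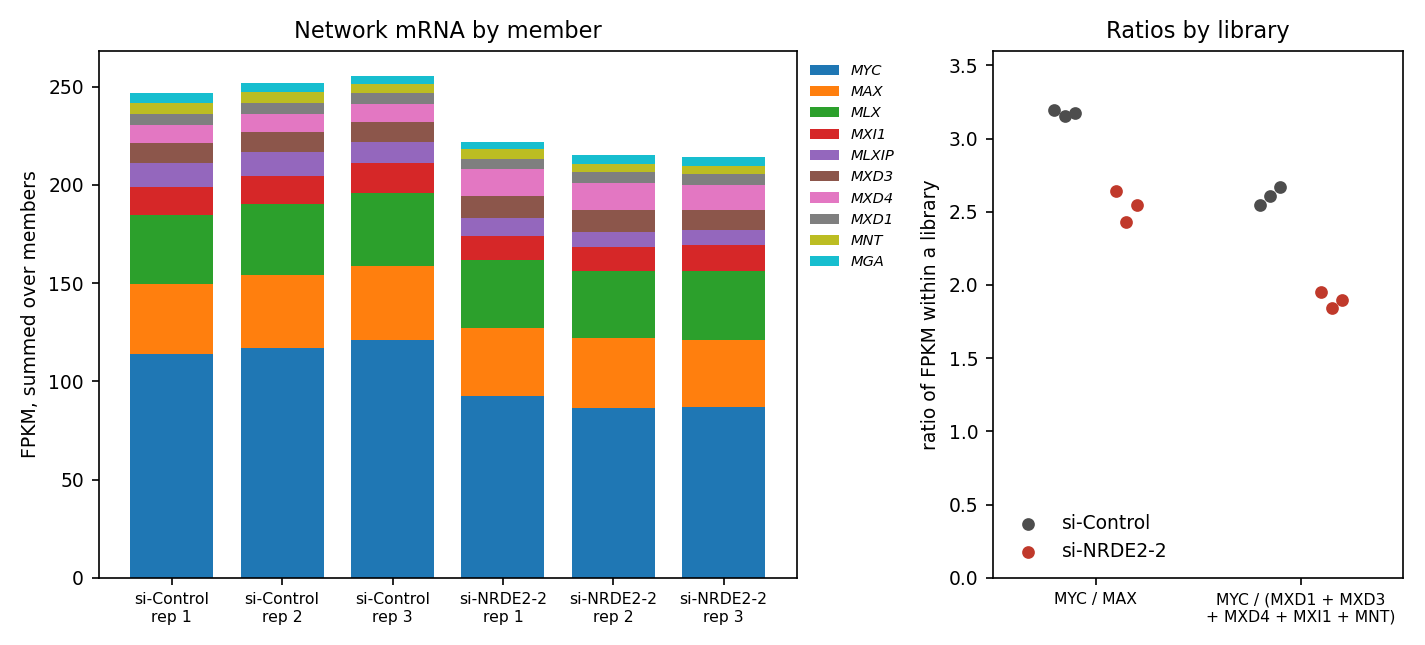
Left, FPKM of the 10 members stacked for each library; right, FPKM of MYC over that of MAX and over the sum of MXD1, MXD3, MXD4, MXI1 and MNT, 1 point per library. MYC takes a smaller part of a lower total in the si-NRDE2-2 libraries, and both ratios are lower there without overlap.

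The 3′ UTRs of the members were searched for GACGTA, for its relative GACAGTA and for GACTGTA, sequences that an earlier scan of these same fold changes had linked to genes that rose. With 1 annotated transcript per gene, 3 of 10 members held one of them (MXD1, MNT and MLXIP), against 17.3% of 10577 tested genes searched. The 3′ UTRs of these 3 were 4661, 2841 and 5535 bases long, and those of the other members ran from 302 (MXD3) to 3112 bases (MXD4). The comparison does not allow for length. MXD4, which rose, held none, and the 3 that did hold one either fell or gave no call. Since the sequences were drawn from these same fold changes, this describes the members and is no test of the sequences.

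By a rule on the shape of the profile, the tested genes with at least 10 FPKM on average that lay nearest to MYC over the 6 libraries were TMEM161A, FTSJ1, RIC8A, QARS and RNF10. Their root mean square distance from MYC, on log2 values set relative to the control mean, was 0.00855 to 0.0248. TMEM161A went from 19.2 to 14.4 FPKM and RNF10 from 70.8 to 53.5 FPKM. With 6 libraries in 2 groups this likeness is mostly that of the group difference.

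Genes around the network were taken from lists drawn up from textbook knowledge, and each is described by its counts and median beside the 44.0% called and the median of -0.016 over all tested genes. Some genes stand in more than 1 list (HDAC1, HDAC2 and WDR5 among them). Among other factors of E-box sites, MYCN and MYCL, the paralogues of MYC, were below the filter (at most 0.0071 and 0.334 FPKM). Of 9 tested factors 4 fell and 1 rose (median -0.02, from -0.07 to 0.01 when single libraries were left out). MLXIPL, the other glucose-sensing partner of MLX, fell from 2.09 ± 0.132 to 1.32 ± 0.214 FPKM (-0.63 ± 0.11, limma adjusted p = 9.4e-04), or by 0.41 with a pseudocount of 1. The sterol regulator SREBF2 (-0.39), TFAP4 (-0.39), itself a known target of MYC, and MITF (-0.29) also fell. The lysosomal regulator TFEB rose by 0.19, which was not called when si-Control replicate 1 or si-NRDE2-2 replicate 2 or 3 was left out, with the replicate block or with scaled libraries (adjusted p up to 0.0750).

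Of 15 tested cofactors that MYC uses on chromatin, 3 rose and 4 fell (median -0.10), that is 46.7% called. The acetyltransferase gene KAT5 (TIP60) rose from 15.2 ± 0.659 to 26.9 ± 0.237 FPKM (0.82 ± 0.05, limma adjusted p = 2.8e-07). KAT2A (GCN5), another acetyltransferase gene, fell from 20.3 ± 0.237 to 11.5 ± 0.726 FPKM (-0.82 ± 0.05), and EP400, a remodeller subunit of the same complex as KAT5, fell from 7.51 ± 0.692 to 4.20 ± 0.193 FPKM (-0.82 ± 0.07). The MYC-binding scaffold gene WDR5 rose by 0.34. TRRAP, the scaffold that recruits both acetyltransferases, fell by 0.24 with overlapping groups, and was called in only 1 of the 6 fits that each left out a library, the one lacking si-Control replicate 3, and not with no filter, scaled libraries or no variance trend (adjusted p up to 0.154).

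The SIN3 and HDAC corepressor, through which MXD proteins, MXI1 and MNT repress, had 6 of 18 tested genes higher and 3 lower. Its median of 0.02 ran from -0.00027 to 0.03 when single libraries were left out. The deacetylase gene HDAC1 fell from 67.0 ± 1.84 to 37.6 ± 1.30 FPKM (-0.83 ± 0.04, limma adjusted p = 2.0e-07). Its paralogue HDAC2 rose by 0.15, which was not called when replicate 1 or 2 of si-Control or replicate 2 or 3 of si-NRDE2-2 was left out or GC and length trends were removed (adjusted p up to 0.160). The scaffold gene SIN3B fell by 0.18, which leaving out replicate 2 of either group undid (adjusted p up to 0.0588), and SIN3A was at -0.14 with an adjusted p of 0.0545 (limma), which ran from 0.0209 to 0.234 over the alternatives and was under 0.05 in 3 of 16. The subunit genes BRMS1L (0.53), SAP30L (0.32), SAP18 (0.18) and BRMS1 (0.17) rose. Without si-NRDE2-2 replicate 2, 5 genes of this list were called in place of 9. HDAC2 is named outside the rule, after its value was seen, as is SIN3A.

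Among partners of MGA in PRC1.6, 4 of 15 tested genes rose and 4 fell (median -0.06), or 5 in all without si-NRDE2-2 replicate 2. PCGF6, the subunit that defines this complex, rose from 7.95 ± 0.104 to 11.1 ± 0.749 FPKM (0.48 ± 0.06, limma adjusted p = 7.3e-05), while L3MBTL2 fell from 7.18 ± 0.223 to 5.97 ± 0.0502 FPKM (-0.26 ± 0.05). RING1 and EHMT2 were listed at 0 in all libraries and were not tested.

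Of 20 genes of MYC protein turnover 2 rose and 6 fell (median -0.05). The deubiquitinase gene USP36, whose protein stabilizes MYC, fell from 10.3 ± 0.598 to 7.27 ± 0.177 FPKM (-0.49 ± 0.06), and the kinase gene PLK1 (-0.37), the phosphatase subunit gene PPP2R5A (-0.33) and CIP2A, an inhibitor of that phosphatase listed as KIAA1524 (-0.26), fell too. The catalytic subunit gene PPP2CA and the ubiquitin ligase gene BTRC rose by 0.18 and 0.19, the latter not without si-NRDE2-2 replicate 3 or with scaled libraries (adjusted p up to 0.0678). FBXW7, the main ubiquitin ligase of MYC and named outside the rule, was at -0.05 (limma adjusted p = 0.473).

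Of 17 tested genes of MYC transcription and mRNA control 5 rose and 4 fell (median 0.08), or 5 in all without si-NRDE2-2 replicate 2. YBX1, an RNA-binding protein gene with processed copies in the genome that can share its reads, rose from 232 ± 9.48 to 396 ± 3.70 FPKM (0.78 ± 0.05, limma adjusted p = 6.8e-07). IGF2BP2, one of the proteins that protect MYC mRNA from decay, fell from 43.4 ± 1.61 to 32.7 ± 1.30 FPKM (-0.41 ± 0.05), and its paralogue IGF2BP3 rose by 0.17, which was not called with replicate 2 of either group or replicate 3 of si-NRDE2-2 left out (adjusted p up to 0.0663). FUBP1, which binds DNA upstream of MYC, rose by 0.25. TCF7L2, a Wnt effector, rose by 0.21, but not without si-NRDE2-2 replicate 2 (adjusted p = 0.0642). PVT1, the long non-coding RNA next to MYC, fell from 7.79 ± 0.403 to 6.27 ± 0.557 FPKM (-0.31 ± 0.07, limma adjusted p = 0.0044).

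Of 39 tested genes known to be activated by MYC 17 fell and 4 rose, with a median of -0.12 (-0.15 to -0.11 when single libraries were left out), and 32 of them, 82.1%, had a log2 fold change below 0, against 53.2% of all tested genes. When single libraries were left out, 13 to 20 fell and 2 to 5 rose; 2 rose without replicate 1 or 2 of si-Control or replicate 2 or 3 of si-NRDE2-2. This list overlaps a set of ribosome biogenesis genes already known to fall in these libraries and is no independent evidence of direction. The pyrimidine synthesis gene CAD went from 16.8 ± 1.41 to 11.3 ± 0.247 FPKM (-0.56 ± 0.06). The purine synthesis genes IMPDH2 and PPAT fell by 0.38 and 0.40, and MYBBP1A, which acts in ribosomal RNA synthesis, fell by 0.41. Lactate dehydrogenase, LDHA, rose from 771 ± 14.6 to 927 ± 20.8 FPKM (0.26 ± 0.05, limma adjusted p = 0.0019), and the mitochondrial transcription factor TFAM rose by 0.23. Ornithine decarboxylase, ODC1, a classical MYC target named outside the rule, was at -0.15 with an adjusted p of 0.0757 (limma), which ran from 0.0112 to 0.224 over the alternatives and was under 0.05 in 4 of 16.

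Of 10 tested genes known to be repressed by MYC 4 rose and 3 fell (median 0.13). The cell cycle inhibitor gene CDKN1A rose 1.63-fold, the stress gene NDRG1 1.49-fold and the matrix gene THBS1 1.16-fold. The chaperone gene CLU fell from 22.1 ± 0.596 to 14.4 ± 0.736 FPKM (-0.62 ± 0.05) and DUSP1, a phosphatase of MAP kinases, fell by 0.29.

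The called genes among the glucose-responsive targets of MLX heterodimers did not share a direction. Of 10 tested, 2 rose and 3 fell (median -0.05). Called or not, 8 of the 10, or 80%, had a log2 fold change below 0, against 53.2% of all tested genes. TXNIP, the best-known MondoA target and an inhibitor of glucose uptake, was 275, 278 and 332 FPKM in the si-Control libraries and 249, 244 and 248 FPKM in the si-NRDE2-2 libraries. The groups did not overlap, and si-Control replicate 3 stood above the other controls (log2 fold change -0.25 ± 0.07, limma adjusted p = 0.0122). Without that library the log2 fold change was -0.16 (limma adjusted p = 0.0024). Its paralogue ARRDC4, another MondoA target, went the other way, from 1.96 ± 0.200 to 2.91 ± 0.119 FPKM (0.55 ± 0.08, limma adjusted p = 4.1e-04), and ARRDC3 rose by 0.52. The fatty acid synthase gene FASN, also a target of SREBP factors, fell from 80.5 ± 5.45 to 53.7 ± 2.22 FPKM (-0.58 ± 0.06). ACLY, which makes acetyl-CoA for it, fell by 0.13, which was not called with the replicate block, with no variance trend or when any library but si-Control replicate 3 was left out (adjusted p up to 0.154).

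**Figure D4:**
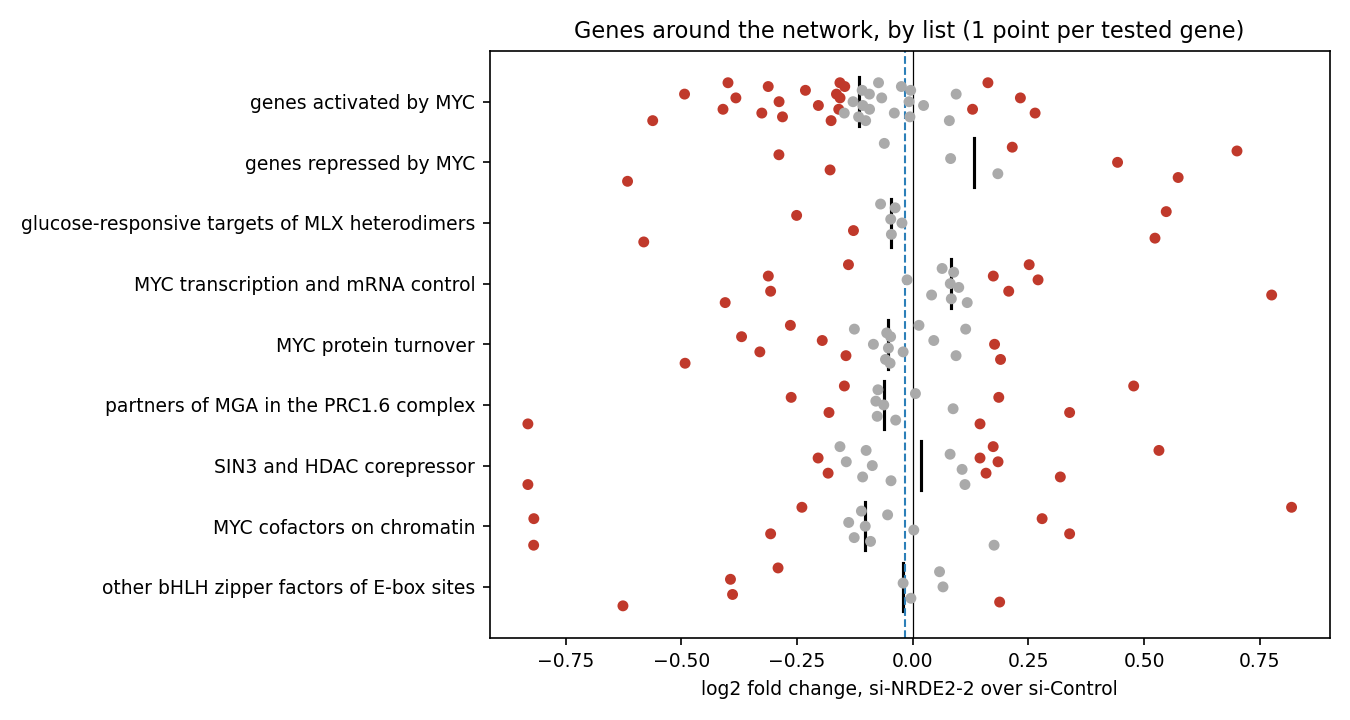
Log2 fold change of each tested gene in 9 lists around the network (red, adjusted p under 0.05; grey, not called; black bar, median of the list; dashed line, median of all tested genes). Every list has points on both sides of 0, and the median of the genes activated by MYC is -0.12.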

How the data were processed

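The values, per gene and library, were taken as FPKM, from the decimals and column sums of the table the authors deposited. The submitters' processing notes name hg19, STAR (2.5.1b) and DESeq2 (1.10.1) without a role. The program behind the FPKM values, its annotation and its strand setting are not given in the sources used here. Library totals were 448986 to 486271 FPKM, and a row at 0 can be a failed estimate. Groups come from sample titles and columns from descriptions, and 4 further columns were not used. Values were used unscaled. A gene was kept if 3 or more libraries had 1 FPKM or more, 158 small RNA rows were left out, and log2(FPKM + 0.1) was fitted for 11790 genes with limma 3.58.1 (R 4.3.3; trended, robust prior variance; 2 groups only; Benjamini-Hochberg). Tested on simulated data for si-NRDE2-2 against si-Control (11790 genes), the fit recovered 54% of genes changed 1.25-fold, 88% at 1.5-fold and 98% at 2-fold. Depth was estimated from 11 to 22 genes per library with a single long transcript, each low value being read as a single fragment. It rests on GENCODE lengths, and estimates below a set floor were discarded, so a depth under that floor could not come out. Transcript lengths and 3′ UTRs are from GENCODE release 29, used without coordinates since it is of another build, and promoter windows are from RefSeq. The members, lists and alternatives were chosen with earlier results of these data known, and the removal of GC and length trends was added after seeing the data. Named genes were all members and NRDE2, then up to 4 called genes of each list with the smallest adjusted p (the more frequent direction first) and up to 2 in the opposite one. Others are said to be named outside the rule, and some list genes are not reported here.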

Additional observations from a re-analysis of the deposited data

How the results depend on the processing

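Over 16 alternatives the calls and directions of MYC, MXD4, MLXIP and MXI1 were the same, with log2 fold changes of -0.44 to -0.37, 0.50 to 0.59, -0.55 to -0.43 and -0.25 to -0.18, and MXD3 and MLX gave no call in any. The members called numbered 4 to 6, and the genes called among all tested were 3877 to 6338 (5185 as reported). MNT was not called with no filter on low values (-0.24) or with libraries scaled to the same FPKM total (-0.24). MAX was called with quantile normalization (-0.10, adjusted p = 0.0434), and MGA with GC and length trends removed (-0.16). The cause was not tested. With a mean of at least 5 FPKM, 1 factor of E-box sites was called, since 5 were then tested. When single libraries were left out, MNT ran from -0.30 to -0.20, MGA from -0.25 to -0.10 and MXD1 from -0.048 to 0.0028. Calls then ran from 5 to 11 in the SIN3 list, 5 to 8 in the PRC1.6 list and 5 to 9 in the MYC mRNA list. NRDE2 (log2 fold change -3.70, or -2.08 with a pseudocount of 1) fell below the filter without any 1 si-Control replicate, and with a mean of at least 5 FPKM NRDE2, MNT and MGA were not tested.

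Deviations of same-numbered libraries from their group means correlated at -0.121, 0.104 and -0.118, and those of differently numbered libraries at -0.11 to 0.166. With 3 libraries per group these values cannot tell whether the replicate numbers paired the samples. With the replicate number as a block 4684 genes were called among all tested, and 1 member rose and 4 fell. The lowest depth estimate was 43600000 fragments, by a procedure that discards low estimates. SEs of log2 fold changes are limma's moderated ones, which borrow from all genes tested.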
